A study of Gallus gallus with 9 samples.

Results

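The 6 genes described here encode small leucine-rich proteoglycans (SLRPs) measured in the face of the chick embryo: OPTC (opticin), OGN (osteoglycin, or mimecan), KERA (keratocan), LUM (lumican), FMOD (fibromodulin) and DCN (decorin). All probe sets that the platform annotation assigns to these genes were taken, which gave exactly 1 probe set for each gene, 6 of the 38439 tested and 6 of the 13009 genes they represent. OPTC was chosen because it stood among the largest differences between mandibular and frontonasal pools in an earlier analysis of these arrays, and the 5 relatives were added with those results known. The levels and differences of the 6 genes are therefore given as a description, without p-values, and their calls are not read as tests.

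The study surveyed the normal chick face at Hamburger Hamilton stage 18, after neural crest cells have stopped migrating and before cartilage, bone or muscle differentiate. Mandibular prominences, maxillary prominences and the frontonasal mass were dissected from untreated embryos of unknown genotype, incubated at 38 degrees C. Each sample held mesenchyme together with epithelium, pooled from 26 to 32 pieces, and was hybridised to 1 Affymetrix chicken array. There were 3 pools for each prominence, 9 arrays in all.

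SLRPs are secreted matrix proteins in which a chain of leucine-rich repeats is flanked by cysteine clusters, and many of them carry chondroitin, dermatan or keratan sulphate chains. The repeats bind collagen fibrils and set their diameter and spacing, and several SLRPs also bind growth factors or their receptors. In vertebrates, LUM, KERA and OGN are best known as keratan sulphate proteoglycans of the corneal stroma, DCN and FMOD as regulators of fibrils in skin, tendon and cartilage, and OPTC as a glycoprotein of the vitreous and its collagen fibrils. Facial mesenchyme at the age studied is a loose embryonic matrix, which later gives rise to the skeleton and connective tissue of the jaws.

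Signals below are linear intensities after all arrays were brought to the same median, and differences are of log2(signal + 16) with their standard error (SE), which understates the change of dim genes. Folds are ratios of geometric mean signals. Background on an array, taken as the 95th percentile of the 598 viral or reporter gene probe sets, was 31.6 to 37.1 per array. Deposited array medians were 34.3 to 37.3, and 49.2% to 53.3% of probe sets lay above background. Between 10 and 11 of 12 neural crest mesenchyme genes and between 6 and 8 of 8 surface epithelium genes were above background on every array, and the labels give the tissue as both. Frontonasal pool 2 stood apart in transcripts of visceral organs. The summed signal of 18 such genes was 7658 there and 2096 to 2482 on the other 8 arrays, and FGB, the fibrinogen beta chain of liver, read 2292 there against 46.6 to 75.9. The 3′ to 5′ signal ratio of GAPDH, a measure of RNA integrity, was 1.51, 1.27 and 1.38 on the frontonasal arrays and 1.19 to 1.29 on the other 6. That of actin was 2.41, 1.88 and 1.96 against 1.99 to 2.46, and that of EF1A 1.61, 1.42 and 1.35 against 1.21 to 1.44. Each of the 3 ratios overlapped between frontonasal and other arrays, and actin did not share the direction of the others. Values without frontonasal pool 2 stand beside the results below, and the part that the 3′ to 5′ ratios play in them was not tested.

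OPTC was above background in the frontonasal mass alone. Its signal was 160.0, 114.6 and 221.2 in frontonasal pools 1 to 3. It was 12.6, 11.0 and 13.7 in the mandibular pools and 13.1, 24.4 and 17.2 in the maxillary pools. Every frontonasal array lay far above the other 6, none of which was above background. OPTC, a class III SLRP, was at least 4.74-fold higher in frontonasal than in mandibular pools and at least 4.53-fold higher than in maxillary pools, taking background as the lowest value of the dimmer group. The fitted differences were -2.63 ± 0.21 (log2, SE, n = 3 a group) for mandibular minus frontonasal and -2.38 ± 0.21 for maxillary minus frontonasal. Without frontonasal pool 2 they were -2.85 ± 0.17 and -2.59 ± 0.17. Mandibular and maxillary pools both lay below background and their arrays overlapped, with a difference of -0.25 ± 0.21. In bulk pools such as these, fewer cells of a type and less RNA per cell cannot be told apart.

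OGN, the other class III member, was dim but also highest in the frontonasal mass. Its frontonasal signals were 125.8, 75.9 and 72.6, against 49.3, 29.8 and 17.1 in mandibular pools. Maxillary pools read 56.3, 39.7 and 25.3. The frontonasal arrays lay above all 6 others, while mandibular and maxillary arrays overlapped. OGN was above background on 3 frontonasal, 2 maxillary and 1 mandibular arrays. Its means were 91.4 ± 29.8 in frontonasal, 32.0 ± 16.2 in mandibular and 40.4 ± 15.5 in maxillary pools (SD, n = 3). Since most mandibular readings were not above background, no fold is given against that group, and the ratio to maxillary pools was 2.31-fold. The log2 differences were -1.18 ± 0.30 and -0.93 ± 0.30, and -0.25 ± 0.30 for mandibular minus maxillary. The spread inside a prominence was wide, so that single pools set much of these means.

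KERA, a class II SLRP that in human carries mutations in cornea plana, had a different pattern from OPTC. Its maxillary signals were 159.9, 199.5 and 164.7. Mandibular pools read 92.1, 90.7 and 82.3, and frontonasal pools 85.5, 108.5 and 71.2. All 3 maxillary arrays lay above the other 6, which overlapped with each other. The maxillary level was 2.0-fold the frontonasal one (log2 difference 0.88 ± 0.14) and 1.97-fold the mandibular one (-0.86 ± 0.14 for mandibular minus maxillary). Mandibular and frontonasal pools differed by 0.01 ± 0.14. KERA was above background on all 9 arrays.

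**Figure D1:**
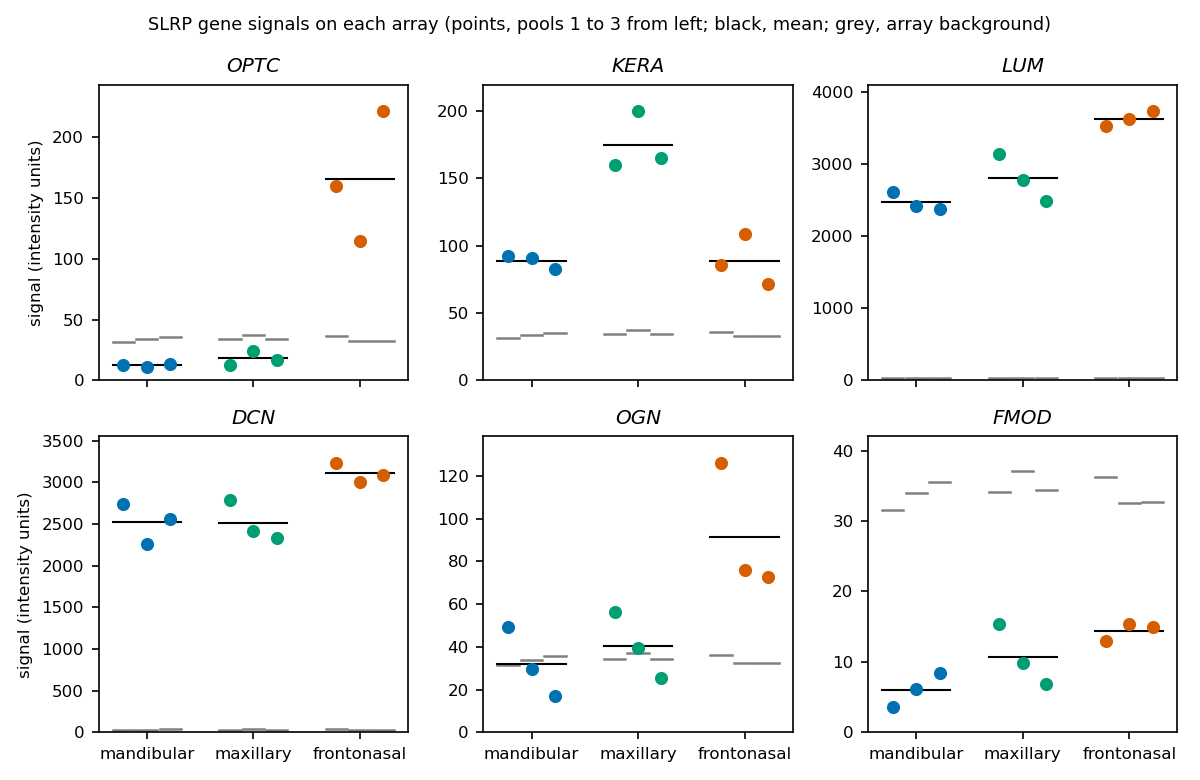
Signal of each SLRP gene on each array (y axis, intensity units, linear from 0, a separate scale for each gene) by prominence; points are pools 1 to 3 from left, black marks the mean and grey the array's background. OPTC is above background in the 3 frontonasal pools alone, KERA is highest in the 3 maxillary pools, and FMOD stays below background throughout.

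LUM and DCN were strongly expressed in all 3 prominences and differed little between them. LUM, a class II SLRP that in mouse is needed for corneal transparency, read 3523, 3627 and 3732 in frontonasal pools. It read 2621, 2422 and 2376 in mandibular pools and 3140, 2777 and 2488 in maxillary pools. Every frontonasal array was above every other one, and mandibular and maxillary arrays overlapped. The frontonasal level was 1.47-fold the mandibular level (-0.55 ± 0.10) and 1.30-fold the maxillary level (-0.38 ± 0.10). The SD was 104 around a mean of 3628 in frontonasal, 130 around 2473 in mandibular and 327 around 2802 in maxillary pools.

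DCN, the class I member and a known ligand of collagen I fibrils and of TGF-beta, read 3227, 3007 and 3091 in frontonasal pools. Mandibular pools read 2739, 2265 and 2554, and maxillary pools 2794, 2421 and 2334. The frontonasal arrays again lay above the other 6, by 1.24-fold over either prominence (-0.31 ± 0.10 each). Mandibular and maxillary means were 2520 ± 239 and 2516 ± 244 (SD, n = 3), so their order is not resolved. FMOD, a class II regulator of collagen fibrils in tendon, was above background on none of the 9 arrays. Its highest signal was 15.4, so no fold is given for it, and its absence from these tissues cannot be read from a probe set below background.

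Of the 6 genes, 2 were called (limma, Benjamini-Hochberg adjusted p under 0.05 over all probe sets) between mandibular and frontonasal pools, where 4.14% of all genes were called. These were OPTC and LUM, both lower in mandibular pools, as were 2.31% of all genes. Between maxillary and frontonasal pools 2 were called against 3.52% of all genes, OPTC lower and KERA higher in maxillary pools. Between mandibular and maxillary pools limma called 0 of the 6, against 0.454% of all genes, and 1 of them, KERA, had an unadjusted p under 0.05 and was called without frontonasal pool 2 (-0.86 ± 0.11). Because the genes were chosen on these contrasts, nothing is read from the counts. The calls of single members, here and under other settings below, likewise describe the fit and are no test. The groups did not overlap for 5 of the 6 genes between mandibular and frontonasal pools, all 5 lower in mandibular pools and FMOD among them although below background, against 21.1% of all genes in either direction and 11% in that one. The exception was KERA. Between maxillary and frontonasal pools they did not overlap for 5 genes, against 20.5% of all genes. KERA was higher and OPTC, OGN, LUM and DCN were lower in maxillary pools, the direction of 11.4% of all genes. Between mandibular and maxillary pools KERA alone did not overlap, being lower in mandibular pools, against 15.3% of all genes in either direction and 5.92% in that one. The comparisons with the frontonasal mass share its 3 arrays and are not independent.

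**Figure D2:**
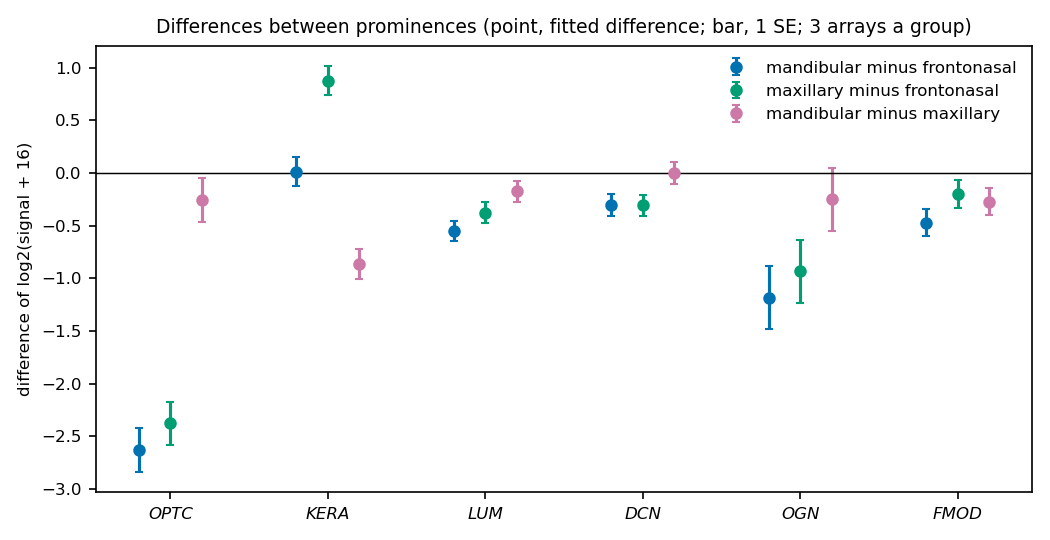
Fitted difference of log2(signal + 16) (y axis) for each SLRP gene in each of the 3 comparisons; points are differences and bars 1 SE, with 3 arrays a group. OPTC has the largest differences of the 6 genes (-2.63 and -2.38 against frontonasal pools), KERA alone is higher in maxillary than in frontonasal pools (0.88), and DCN differs by 0.31 or less.

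In the 9 fits that left out 1 array, the OPTC difference lay between -2.85 and -2.42 for mandibular minus frontonasal and between -2.59 and -2.16 for maxillary minus frontonasal. The KERA call between maxillary and frontonasal pools was lost without frontonasal pool 1 and without maxillary pool 2, with differences of 0.87 and 0.79 there, and in a fit to the 6 arrays compared. The difference was 1.01 ± 0.12 without frontonasal pool 2. The LUM call between mandibular and frontonasal pools was kept in only 2 of the 9 fits, those without maxillary pool 1 or 3, and was also lost with pseudocount 1, although its difference stayed between -0.59 and -0.52 in those 9 fits.

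Over the 9 arrays, log2 signals of DCN and LUM had a Pearson correlation of 0.88, and of 0.72 after the prominence means were removed. LUM and OGN gave 0.89 and 0.64, and DCN and OGN 0.87 and 0.64. All 3 genes were highest in pool 1 of the mandibular and of the maxillary pools. In frontonasal pools 1 to 3, however, LUM rose (3523, 3627 and 3732) while OGN fell (125.8, 75.9 and 72.6). DCN was highest in pool 1 there (3227, 3007 and 3091). A high pool 1 in mandibular and maxillary pools was also seen in genes of other kinds, such as COL1A1 and HBA1. COL1A1 read 1502, 1163 and 1181 in mandibular and 2113, 1496 and 1439 in maxillary pools. HBA1, a haemoglobin gene, ordered the mandibular (4822, 3572 and 3852) and maxillary pools 1 to 3 (5085, 3874 and 3730) as DCN did. Its order in frontonasal pools differed from that of DCN (4823, 4611 and 4504). The erythroid genes SLC4A1 and TAL1 were highest in mandibular pool 3 (201.9 and 373.9) and in maxillary pool 1 (238.5 and 384.3). The cause of these pool orders was not tested. OPTC correlated with LUM at 0.89 and with OGN at 0.79 over all arrays, but at -0.09 and -0.16 after the prominence means were removed. OPTC was below background on every mandibular and maxillary array. The values with prominence means removed therefore cannot show whether OPTC varied with LUM or OGN inside a prominence. KERA had correlations of -0.45 to 0.02 with the other 5. All values are over the same 9 arrays, which share their scaling, and are descriptions.

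By the same measure, the 5 genes most like OPTC among 10097 genes above background on at least 3 arrays were PAX7 (0.989), SPON2 (0.987), TTC9 (0.987), MYO3AL (0.986) and TFAP2B (0.986). PAX7, a transcription factor of neural crest and muscle precursors, averaged 79.4 ± 24.1 (SD, n = 3) in frontonasal pools, against 3.24 in mandibular and 3.27 in maxillary pools. SPON2, a secreted matrix protein, averaged 51.5 ± 7.45 against 12.2 and 14.1. Both shared with OPTC a signal above background on the 3 frontonasal arrays alone. Choosing genes by their correlation with OPTC selects for such a pattern, so nothing is read from it. TFAP2B, a transcription factor of neural crest and periocular mesenchyme, was bright everywhere, at 2239 ± 352 against 468 and 534. TTC9 was at 334 ± 68.6 against 65.9 and 74.1, and MYO3AL at 867 ± 164 against 216 and 238. The choice is loose: between 2 and 4 of the 5 stayed among the nearest 5 when 1 array was left out.

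**Figure D3:**
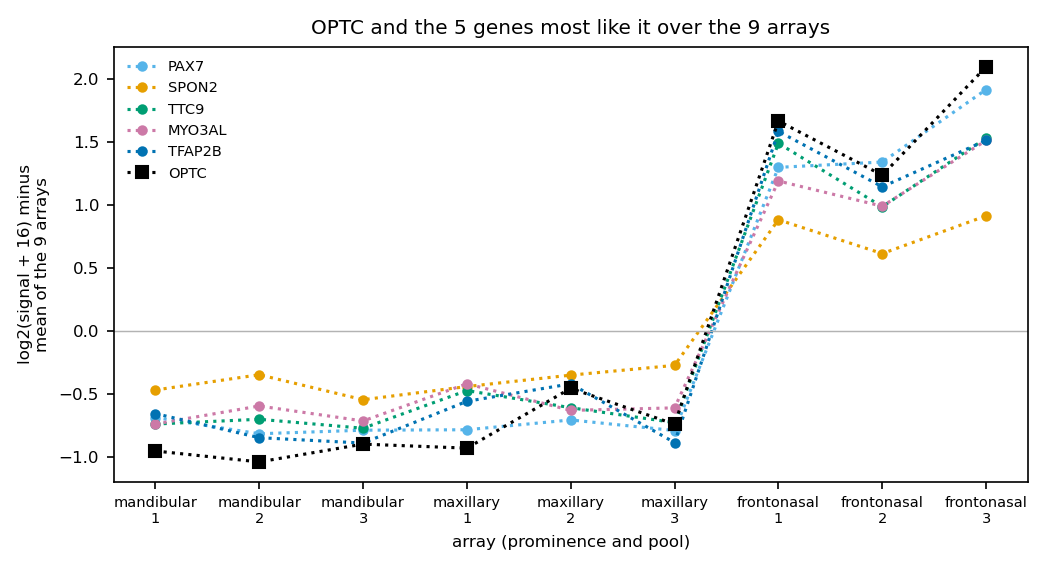
Log2(signal + 16) minus its mean over the 9 arrays (y axis) for OPTC (squares) and the 5 genes most like it (circles) on each array (x axis, prominence and pool). All 6 genes are high on the 3 frontonasal arrays and low on the other 6, which follows from choosing the 5 by correlation with OPTC. OPTC, PAX7, SPON2, TTC9 and MYO3AL are highest in frontonasal pool 3, and TFAP2B in frontonasal pool 1.

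For the other members the nearest genes had smaller differences. They were DCUN1D4 (0.971), MYH10 (0.967) and SYTL4 (0.965) for DCN, and ACAD11 (0.984), MMD (0.980) and SRD5A3 (0.977) for LUM. For OGN they were CRTC1 (0.966), ZYX (0.956) and BICD1 (0.956). KERA had lower correlations with its nearest genes, TRIM39.2 (0.916), COL4A1 (0.899) and MDM1 (0.898). COL4A1, a basement membrane collagen, read 371.5, 355.8 and 342.0 in maxillary pools against 224.9 to 290.8 on the other 6 arrays.

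In the reference gene table, the genes of this family lie in clusters. FMOD, PRELP, OPTC and ATP2B4 follow each other, with only non-coding genes between them, and so do EPYC, KERA, LUM and DCN. OGN lies beside OMD and NOL8, with ECM2 and a gene listed as BGN on the OMD side. Beside OPTC, FMOD and PRELP were below background on all 9 arrays. Beside KERA, which was highest in maxillary pools, LUM and DCN were highest in frontonasal pools and EPYC was above background on no array. ATP2B4, a plasma membrane calcium pump, averaged higher in frontonasal pools but did not pass the test (-0.40 ± 0.16, limma adjusted p = 0.302, and -0.49 ± 0.16, adjusted p = 0.191). NOL8, a nucleolar protein gene, read 127.8 to 183.0 with all 3 groups overlapping. Of the 7 measured genes within 3 places of a member, BTG2, an antiproliferative gene on the far side of FMOD, was the one called. It was 1.98-fold higher in frontonasal than in maxillary pools (-0.96 ± 0.16, limma adjusted p = 0.0194). That call was lost without maxillary pool 1 (adjusted p = 0.0634) or maxillary pool 3 (0.0695), and BTG2 between mandibular and frontonasal pools gave -0.65 ± 0.16 (adjusted p = 0.0835).

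Of 12 further SLRP genes, 8 were measured and 3 of these were above background on at least 3 arrays. BGN, PRELP, EPYC, NYX and PODN were above background on no array. Whether the BGN probe set measures the gene listed as BGN beside OMD was not settled. ASPN, OMD, CHAD and PODNL1 were not analysed here. Limma called 0 of the 8 in each of the 3 comparisons, and 1, 2 and 0 had an unadjusted p under 0.05 (mandibular minus frontonasal, maxillary minus frontonasal and mandibular minus maxillary). Their median differences were 0.05, -0.02 and 0.02, beside 0.004, -0.007 and 0.008 over all genes. TSKU, a secreted modulator of growth factor signals, read 78.7, 89.3 and 113.6 in frontonasal pools and 49.8, 63.9 and 68.1 in maxillary pools. The groups did not overlap, but the difference did not pass the test (-0.52 ± 0.14, limma adjusted p = 0.135). ECM2 averaged 33.2 ± 13.6 in frontonasal, 53.1 ± 13.9 in mandibular and 60.2 ± 12.5 in maxillary pools (SD, n = 3), with adjusted p of 0.366 and 0.222 against frontonasal pools. CHADL read between 37.4 and 76.8 on all arrays, and all 3 groups overlapped.

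Collagens that SLRPs bind included several genes that were higher in the frontonasal mass. Of 12 measured genes, each above background on at least 3 arrays, 4 fell from frontonasal to mandibular pools and none rose, and 2 fell from frontonasal to maxillary pools. The medians were -0.61 and -0.41. The list was chosen with results of these arrays known. COL6A1, a chain of the beaded-filament collagen VI, read 225.8, 124.1 and 156.6 in frontonasal pools. It read 22.01, 25.34 and 24.78 in mandibular pools, all below background, and 41.7, 49.4 and 43.4 in maxillary pools. The frontonasal level was at least 4.86-fold the mandibular one (-2.17 ± 0.18, limma adjusted p = 0.000527) and 3.66-fold the maxillary one (-1.57 ± 0.18, adjusted p = 0.00303). COL6A2, its partner chain, was 2.80-fold and 2.31-fold higher in frontonasal pools (-1.35 ± 0.13, limma adjusted p = 0.00133, and -1.10 ± 0.13, adjusted p = 0.00389). COL6A3, the remaining measured chain, did not pass the test (-0.99 ± 0.23, limma adjusted p = 0.0677, for mandibular minus frontonasal), though its frontonasal arrays lay above all others. These collagen VI chains and OPTC were both highest in frontonasal pools.

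COL14A1 and COL12A1, which attach to collagen fibrils, were also higher in frontonasal than in mandibular pools, unlike COL9A1, which was higher in mandibular pools. COL14A1, which binds DCN in other species, was 1.87-fold higher (-0.89 ± 0.10, limma adjusted p = 0.0034). COL12A1 was 2.08-fold higher (-0.98 ± 0.15, adjusted p = 0.0123), a call lost without mandibular pool 2 (0.0579) or mandibular pool 3 (0.0545). COL14A1 was the one listed collagen called between mandibular and maxillary pools (-0.82 ± 0.10, limma adjusted p = 0.0275), lost when any one of those 6 arrays was left out (0.0578 to 0.133). The median of the list in that comparison was -0.29. The main fibril collagens did not pass the test. COL3A1, of collagen III, read 181.4, 2172.4 and 316.0 in frontonasal pools, with pool 2 apart from the others, against 893.9 to 1072.3 in mandibular and 343.7 to 369.9 in maxillary pools. COL5A2 averaged higher in mandibular than in frontonasal pools (1.25 ± 0.28, limma adjusted p = 0.0636). Without frontonasal pool 2, 7 of the 12 collagens were called between mandibular and frontonasal pools (2 higher, 5 lower in mandibular pools), 2 for maxillary minus frontonasal, and 3 in the comparison of mandibular with maxillary pools.

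Most enzymes that build the glycosaminoglycan chains of SLRPs did not pass the test. Of 25 measured genes, 19 were above background on at least 3 arrays. From frontonasal to mandibular pools 3 fell, and from frontonasal to maxillary pools 2 fell. None rose, and the medians were -0.08 and -0.08. Between mandibular and maxillary pools limma called 0, with 2 at an unadjusted p under 0.05 and a median of 0.02. B3GNT7, a transferase that extends keratan sulphate chains, read 162.1, 126.4 and 120.2 in frontonasal pools. Mandibular pools read 41.1, 48.8 and 45.1, and maxillary pools 53.2, 34.6 and 39.2. The frontonasal level was 3.01-fold the mandibular one (-1.31 ± 0.14, limma adjusted p = 0.00247) and 3.24-fold the maxillary one (-1.39 ± 0.14, adjusted p = 0.00207). B4GALT4, a galactosyltransferase that acts on keratan sulphate chains, averaged 844 ± 97.2 in frontonasal, 473 ± 43.9 in mandibular and 543 ± 9.41 in maxillary pools (SD, n = 3). It fell in both comparisons (-0.81 ± 0.10, limma adjusted p = 0.00543, and -0.61 ± 0.10, adjusted p = 0.0224). The maxillary call of B4GALT4 was lost without frontonasal pool 2 (0.0542) or 3 (0.0563) or any maxillary pool (0.0708 to 0.0821). FAM20B, a kinase that acts on the linkage region of the chains, was 1.86-fold lower in mandibular pools (-0.81 ± 0.15, limma adjusted p = 0.0259). This call was lost without any mandibular pool (0.0808 to 0.0973) and without frontonasal pool 1 (0.0912) or 2 (0.0643).

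**Figure D4:**
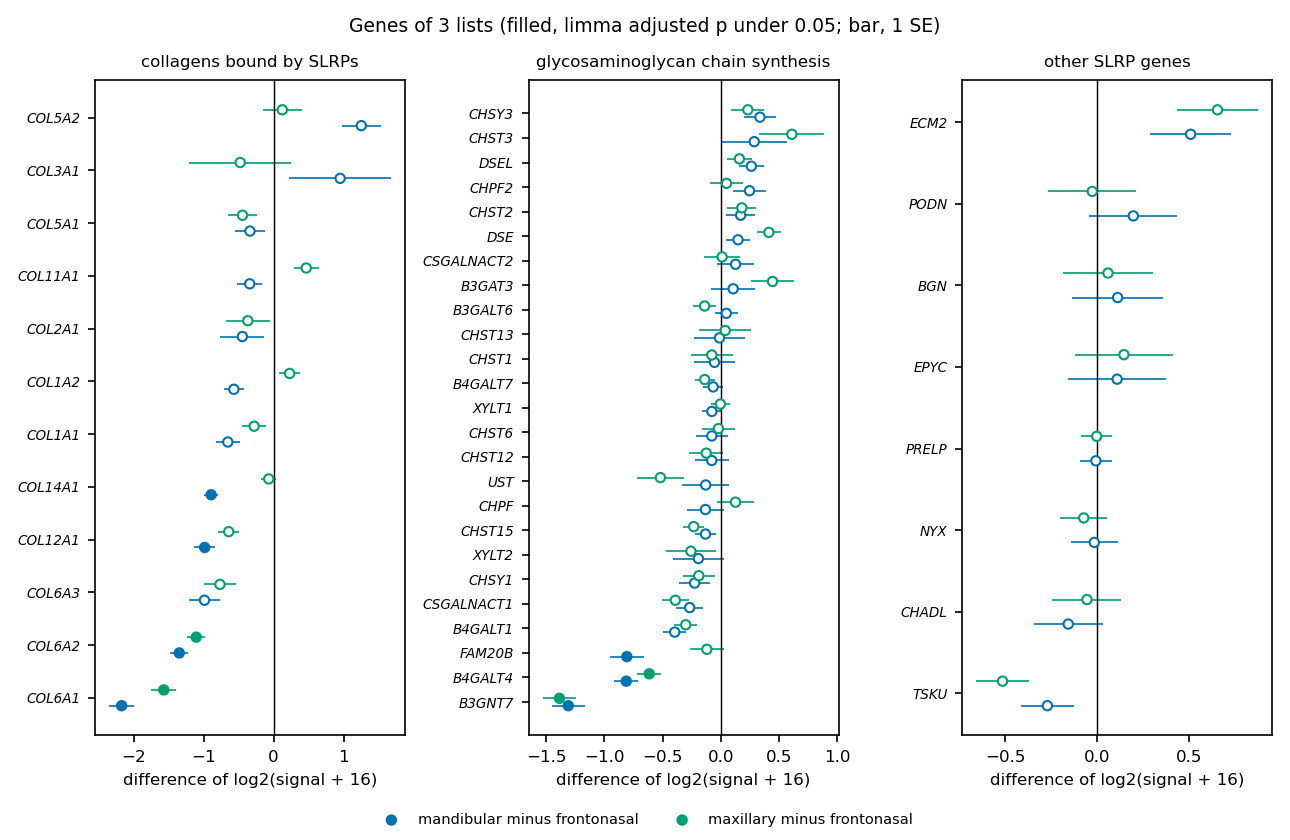
Fitted differences of log2(signal + 16) (x axis) for the genes of 3 lists, mandibular minus frontonasal and maxillary minus frontonasal; filled points passed limma's test at an adjusted p under 0.05, and bars are 1 SE. COL6A1 and COL6A2 among the collagens and B3GNT7 and B4GALT4 among the chain enzymes are lower in both comparisons, while no other SLRP gene is filled.

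Growth factors and receptors that SLRPs bind showed 1 call among 18 measured genes. TGFB2, a ligand that DCN binds in mammals, read 227.5, 158.3 and 190.7 in mandibular pools and 68.6, 109.6 and 64.2 in frontonasal pools. It was 2.42-fold higher in mandibular pools (1.12 ± 0.19, limma adjusted p = 0.0168). The call was lost without mandibular pool 1 (0.0683) or 3 (0.0658) or frontonasal pool 1 (0.0681) or 3 (0.0581), while without frontonasal pool 2 the adjusted p was 0.00374. In the other comparisons limma called 0, with 5 (maxillary minus frontonasal) and 1 (mandibular minus maxillary) at an unadjusted p under 0.05. TGFB1, TGFBR2, TGFBR3, ERBB4, TLR4, LRP1 and MSTN were above background on no array. Without frontonasal pool 2, 1 gene was called between maxillary and frontonasal pools. The medians of the list were -0.03, 0.03 and 0.07.

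Among 24 other proteoglycans and matrix partners, AGRN and SDC2 fell from frontonasal to both other prominences. AGRN, a heparan sulphate proteoglycan of basement membranes, averaged 618 ± 36.3 in frontonasal, 326 ± 12.5 in mandibular and 251 ± 35.3 in maxillary pools (SD, n = 3). Its differences were -0.89 ± 0.11 (limma adjusted p = 0.00421) and -1.25 ± 0.11 (adjusted p = 0.000857). SDC2, a membrane heparan sulphate proteoglycan, gave -0.72 ± 0.11 (limma adjusted p = 0.0117) and -0.99 ± 0.11 (adjusted p = 0.00275), and its mandibular call was lost without mandibular pool 2 (0.0553). GPC3, a glypican anchored to the cell membrane, fell from frontonasal to maxillary pools (-0.91 ± 0.11, limma adjusted p = 0.00378). SPOCK3 was called higher in both comparisons but was above background on no array, so its values carry no fold. Its maxillary call was lost in each of the 9 fits that left out 1 array (0.0549 to 0.119). Limma called 0 between mandibular and maxillary pools, with 10 at an unadjusted p under 0.05. Without frontonasal pool 2, 5 genes were called between mandibular and frontonasal pools and 3 between maxillary and frontonasal pools. The medians were -0.11, -0.04 and 0.06.

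Because OPTC is known from the eye, the levels of eye and forebrain genes are given beside it. Of 15 measured lens genes, 0 were called between mandibular and frontonasal pools, with 3 at an unadjusted p under 0.05. Their summed signal was 564 to 680 in frontonasal, 579 to 627 in mandibular and 616 to 779 in maxillary pools. CRYAA, CRYAB, CRYBA2, CRYBB1, BFSP1 and FOXE3 were above background on no array. MIP and CRYBA4 were above background on all 9 arrays, and CRYBB2, CRYBB3, BFSP2 and ASL1 on 5 each. Between maxillary and frontonasal pools ASL1, the delta-crystallin gene of the chick lens, rose (1.54 ± 0.24, limma adjusted p = 0.0158) and PROX1 fell (-1.62 ± 0.25, adjusted p = 0.0141). The ASL1 call was lost without frontonasal pool 3 (0.0559) or maxillary pool 3 (0.0634), and the PROX1 call without any maxillary pool (0.0525 to 0.0583).

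Of 15 retina and ciliary body genes, 2 were higher and 3 lower in mandibular than in frontonasal pools, and 1 was higher and 2 lower in maxillary pools. With 1 array left out the called genes numbered 3 to 5 and 2 to 3. SIX6, an eye field transcription factor, was above background on the 3 frontonasal arrays alone, as OPTC was. It averaged 50.5 ± 7.97 (SD, n = 3) there and was at least 1.49-fold higher than in mandibular pools (-1.46 ± 0.16, limma adjusted p = 0.00242). The list did not move one way. MITF, a regulator of pigment cells, and RLBP1, a retinoid-binding protein, also fell to mandibular pools (-0.74 ± 0.12, limma adjusted p = 0.0176, and -0.64 ± 0.10, adjusted p = 0.0145). With 1 array left out, this MITF call was lost in 4 of the 9 fits and the RLBP1 call in 2. COL9A1, a collagen of vitreous and cartilage, and WFDC1 rose (2.39 ± 0.18, limma adjusted p = 0.000382, and 0.84 ± 0.09, adjusted p = 0.00221). COL9A1 was below background on all 3 frontonasal arrays. To maxillary pools SIX6 and MITF fell and COL9A1 rose, and the MITF call there was lost in 8 of the 9 fits that left out 1 array. PMEL and ATOH7 were above background on no array. Of the pigment cell genes besides PMEL, TYRP1 was above it on 2 arrays, and TYR, DCT and MITF on all 9. TYR read only 34.8 to 44.9, close to background. The summed signal of the list was 2021 to 2455 in frontonasal, 2730 to 2979 in mandibular and 2210 to 2312 in maxillary pools. WFDC1, the brightest gene of the list, set much of this sum, with means of 859, 1551 and 970 in those groups. The median differences of the list were -0.10 (mandibular minus frontonasal) and -0.12 (maxillary minus frontonasal).

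The summed signal of genes of cornea and periocular mesenchyme was 2931 to 3578 in frontonasal, 1049 to 1089 in mandibular and 1119 to 1305 in maxillary pools. Most of this difference lay in TFAP2B (mean 2239 in frontonasal against 468 in mandibular pools) and EYA2 (573 against 84.6). CHST6, a keratan sulphate sulphotransferase of cornea, averaged 382, 363 and 378 in frontonasal, mandibular and maxillary pools. Of the 7 measured, TFAP2B, EYA2 and LMX1B fell and FOXC2 rose from frontonasal to mandibular pools, and TFAP2B and EYA2 fell to maxillary pools. LMX1B was above background on only 1 array, frontonasal pool 3 (49.8). TFAP2B, one of the 5 genes most like OPTC, gave -2.21 ± 0.16 (limma adjusted p = 0.000265) and -2.04 ± 0.16 (adjusted p = 0.000501). EYA2, a phosphatase and transcriptional cofactor of placodes, gave -2.54 ± 0.15 (limma adjusted p = 0.000134) and -1.29 ± 0.15 (adjusted p = 0.00326). The FOXC2 call was lost without any mandibular pool (0.052 to 0.0593). Of the 3 SLRP genes known from corneal stroma, LUM and OGN were highest in frontonasal pools and KERA in maxillary pools.

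Of 8 forebrain genes, the same number, 3, fell to mandibular and to maxillary pools: SIX3, DMRT3 and NR2E1. HESX1 and EMX2, also above background on at least 3 arrays, averaged lowest in frontonasal pools, though neither was called. HESX1 averaged 69.03 in frontonasal, 74.54 in mandibular and 95.05 in maxillary pools, and EMX2 34.98, 45.01 and 41.35. SIX3, an anterior neural regulator, gave -3.01 ± 0.22 (limma adjusted p = 0.000295) for mandibular minus frontonasal. The summed signal was 462 to 673 in frontonasal, 169 to 200 in mandibular and 235 to 303 in maxillary pools, and LHX5, NKX2-1 and FEZF2 were above background on no array. The part of eye, periocular or forebrain cells in the OPTC values was not tested.

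**Figure D5:**
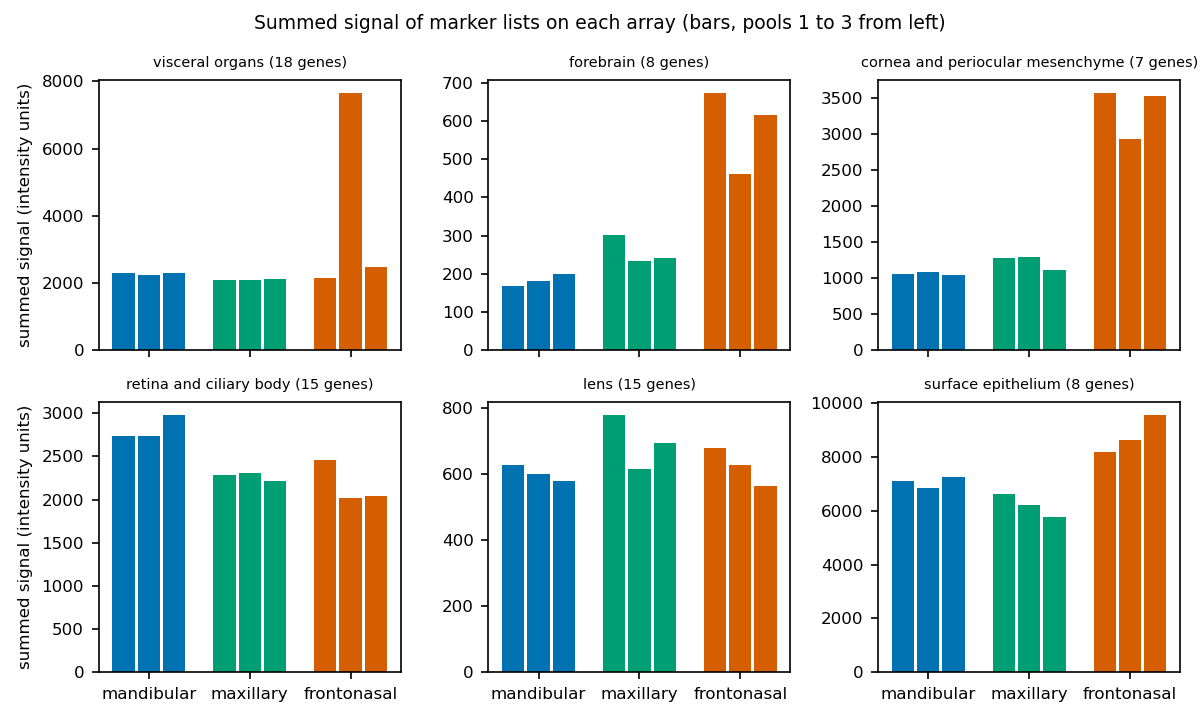
Summed signal (y axis, intensity units, from 0) of marker lists on each array; bars are pools 1 to 3 of each prominence from left. The cornea and periocular sum (mainly TFAP2B and EYA2) is higher in the 3 frontonasal pools. So is the forebrain sum, through SIX3, DMRT3 and NR2E1. The lens sum is not, and the visceral sum is high in frontonasal pool 2 alone (7658).

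Marker lists of other cell types, the visceral one apart, also held genes called in these comparisons. Of 12 neural crest mesenchyme genes, 5 rose and 2 fell from frontonasal to mandibular pools, and 4 rose to maxillary pools. TWIST2, SNAI1 and PRRX1, transcription factors of mesenchyme, rose in both, by 1.64 ± 0.21, 1.38 ± 0.17 and 1.02 ± 0.15 to mandibular pools (limma adjusted p = 0.00581, 0.00491 and 0.0102). ALX1, a regulator of frontonasal mesenchyme, fell to mandibular pools (-2.31 ± 0.14, limma adjusted p = 0.000187). The summed signal of the list was 3130 to 3301 in frontonasal, 4327 to 4866 in mandibular and 4982 to 5964 in maxillary pools. Bright genes set much of this sum, such as PRRX1 (mean 796 in frontonasal against 1616 in mandibular pools) and SNAI1 (359 against 942). The list did not move one way. ALX1 (640 against 116), SOX10 (187 against 65.8), PDGFRA (69.5 against 53.8) and TFAP2A (115 against 91.0) averaged higher in frontonasal than in mandibular pools. The sum is therefore not read as an amount of mesenchyme. Between mandibular and maxillary pools 1 gene was higher and 3 were lower, with 1 to 3 called when 1 array was left out. Of 10 endothelial genes 3 rose from frontonasal to mandibular pools, CD34 among them (1.47 ± 0.15, limma adjusted p = 0.00154), and 3 rose to maxillary pools. Their summed signal was 1719 to 2139 in frontonasal, 3095 to 3298 in mandibular and 2747 to 3366 in maxillary pools. Of 14 cartilage genes 1 rose to mandibular and 3 to maxillary pools, led by COL9A1 (2.39 ± 0.18, limma adjusted p = 0.000382, and 3.55 ± 0.18, adjusted p = 7.51e-05). Its frontonasal signals (11.0, 23.9 and 17.4) were all below background. The medians of the list were 0.15 and 0.33. The maxillary call of LECT1 was lost in 8 of the 9 fits that left out 1 array. Not every gene rose: HAPLN1 averaged 200 in frontonasal, 333 in mandibular and 170 in maxillary pools, and COL2A1 272, 180 and 191. MATN1, MATN3 and EPYC, which mark formed cartilage, were above background on no array. The same held for SOX9, SOX6 and COL9A2 of this list. KERA and COL9A1 thus had their highest signals in the same 3 maxillary pools. Surface epithelium summed to 8184 to 9549 in frontonasal, 6822 to 7236 in mandibular and 5746 to 6617 in maxillary pools. Of its 8 genes, CDH1 and DSP fell and KRT14 rose from frontonasal to mandibular pools. To maxillary pools CDH1, DSP, CLDN1 and EPCAM fell and KRT14 rose. Of 6 erythroid genes SLC4A1 alone fell to mandibular pools and limma called 0 in the other comparisons, with 2 and 0 at an unadjusted p under 0.05. Of 18 visceral genes limma called 0 in any comparison, with 2, 2 and 0 at an unadjusted p under 0.05. With 1 array left out, the endothelial genes called ranged from 2 to 5 (mandibular) and from 0 to 5 (maxillary), the highest counts coming without frontonasal pool 2. The epithelial genes called ranged from 1 to 2 and from 1 to 5, and the SLC4A1 call was lost in 7 of the 9 fits. The part of these cell types in the SLRP values was not tested.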

How the data were processed

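For each of 3 pools per prominence, 500 ng of total RNA went into a two-cycle Affymetrix labelling, per the labels' protocols. The deposited values are linear intensities of 38535 probe sets per array. Which software summarised the probes is not given in the sources used. Each deposited column had a mean of 150.03 without its highest and lowest 2%, so the authors' intensities had been scaled to a common level. Samples were grouped by the prominence in their titles.

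From the deposited intensities, 96 control probe sets were left out and every array was brought to one median (factors 0.961 to 1.04). The model was fitted to log2(signal + 16) with limma 3.58.1 in R 4.3.3, using group means of all 9 arrays (6 residual degrees of freedom), 3 contrasts and Benjamini-Hochberg adjustment over 38439 probe sets, with a call at an adjusted p under 0.05. The p-values measure the spread between pools. The fit was tested on simulated data. A group not above background on any of its arrays was set to at least each array's background on the plain log2 scale, which gives the folds of "at least".

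In the platform annotation 27168 probe sets had 1 gene, 177 several and 11094 none. Names were updated through the gene identifiers of a table of assembly GRCg7b, where 26853 of them matched, and the same table gave the neighbours. A gene was read from its probe set with the highest mean, which gave 13009 genes. The members and the 15 gene lists, with the neighbours as a further list, were chosen with earlier results of these data known. The text names the members, all other SLRP genes measured, called genes of the lists (by a rule of at most 4 a list and comparison, largest differences first, which the text uses in part), measured neighbours within 3 places, and the genes most like each member by Pearson correlation. Genes given below the test's threshold, or as below background, were added after their values were seen. The alternatives were pseudocounts 1 and 64, no scaling, quantile normalization, no dim probe sets (the lowest 40%), a fit to 6 arrays, a replicate block, robust moderation with a trend, and each array left out. Sequences are not used here, and precision is limited by the number of arrays.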

Additional observations from a re-analysis of the deposited data

How the results depend on the processing

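The counts of probe sets called were 974 (mandibular minus frontonasal), 866 (maxillary minus frontonasal) and 101 (mandibular minus maxillary), and the counts of list genes called were 37, 33 and 8. With pseudocount 1 the probe set counts were 602, 531 and 35, and 3 list genes were called between mandibular and maxillary pools. Fitted to the 6 arrays compared, the counts against frontonasal pools were 613 and 412, with 19 list genes between maxillary and frontonasal pools. With 1 array left out, they ranged from 526 to 1089, from 424 to 797 and from 15 to 174 probe sets, and from 25 to 45, from 21 to 33 and from 1 to 13 list genes. The highest counts came without frontonasal pool 2, and the lowest without mandibular pool 2, maxillary pool 2 and mandibular pool 1. Pools share numbers across prominences in their titles, and no label says that these mark a shared day. The correlation of same-numbered deviations was small but positive, 0.017 to 0.12. Among arrays of the other prominences, 9 of 9 arrays correlated best with their own number, so same-numbered pools were somewhat alike. The main fit did not use the numbers as pairs, which was a choice. What same-numbered pools share was not tested. With a replicate block 830, 684 and 47 probe sets were called, and some list calls were lost (limma adjusted p in brackets). These included COL14A1 between mandibular and maxillary pools (0.0882). Between mandibular and frontonasal pools they included TGFB2 (0.0509), CDH1 (0.0851) and DSP (0.0637). Between maxillary and frontonasal pools they included SPOCK3 (0.0877), MITF (0.0627), CLDN1 (0.063) and KRT14 (0.0636). Of 303 differences of the 6 SLRP genes under alternatives, 291 lay within 1 SD of the main value and 12, all with another pseudocount, did not; 0 reversed a called direction. OPTC ranged from -3.58 (pseudocount 1) to -1.56 (pseudocount 64) for mandibular minus frontonasal and from -3.10 to -1.46 for maxillary minus frontonasal. OGN passed the threshold between mandibular and frontonasal pools in 2 of 8 settings, without dim probe sets and with the block, and between maxillary and frontonasal pools with the block. KERA passed it between mandibular and maxillary pools in 3 of 8 settings and without frontonasal pool 2. Fitted to the 6 arrays compared, the calls of KERA, B4GALT4, BTG2, ASL1, PROX1, SPOCK3 and others between maxillary and frontonasal pools were lost. So were those of TGFB2, CDH1, DSP, SLC4A1 and others between mandibular and frontonasal pools. With pseudocount 1 the calls lost between mandibular and frontonasal pools included LUM, FAM20B, CDH1, DSP and SLC4A1. Those lost between maxillary and frontonasal pools included B4GALT4, SIX3, MITF, CLDN1, EPCAM and KRT14. Between mandibular and maxillary pools COL14A1, WFDC1, PRRX2, MSX1 and SOX10 were lost. FMOD has no value without dim probe sets. The causes of these changes were not tested. Signals below background limit OPTC outside the frontonasal mass, FMOD and OGN to bounds or wide errors.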
